A study of Cloeon viridulum with 15 samples.

Results

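The unigenes described here are those of the mayfly Cloeon viridulum that are named as receptors for neurotransmitters or neuropeptides, together with a few peptides that act through such receptors. A unigene is a transcript sequence assembled from the reads without a genome, and it takes its name from its best protein hit. Members were chosen by words in that name: acetylcholine, glutamate or dopamine receptor, GABA or gamma-aminobutyric, octopamine, tyramine, serotonin or 5-hydroxytryptamine, neuropeptide, allatostatin, tachykinin, eclosion hormone, bursicon, and crustacean cardioactive. Of 91881 unigenes 92 matched, 1 of them with a protist best hit that was left out, so that 91 members with an animal best hit remained. The hit was an arthropod protein for 90 members and an oyster protein for 1, a dopamine receptor 1. No member carried the word bursicon or the words crustacean cardioactive.

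In insects acetylcholine is the main fast excitatory transmitter of the central nervous system and opens nicotinic receptors, which are cation channels built of several subunits. GABA inhibits neurons by opening chloride channels such as Rdl, and glutamate carries the signal of motor neurons to muscle through ionotropic receptors. Octopamine, tyramine, serotonin, dopamine and most neuropeptides act more slowly through G protein coupled receptors, which set arousal, flight, feeding and moulting behaviour.

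Sorted by name, the set held 23 nicotinic and 1 muscarinic acetylcholine receptor unigenes, 12 for GABA receptors, 7 for ionotropic and 2 for metabotropic glutamate receptors, 6 for octopamine and tyramine, 4 for serotonin and 5 for dopamine receptors, and 28 for neuropeptide receptors. The remaining 3 were tachykinin, eclosion hormone and a GABA-receptor-associated protein, which is no receptor. Lengths ran from 311 to 8752 bp with a median of 1423 bp, so many unigenes may be pieces of a transcript. The 91 members matched 84 distinct proteins, and 13 members shared their protein with another member. Such unigenes may be pieces of 1 gene or close copies between which reads were split, and their single values are uncertain.

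Whole bodies were sequenced at 4 stages of the life cycle, with 3 libraries a stage, to follow gene activity through a development in which the winged animal moults once more. Young larvae were caught in the field and kept indoors at 22 ± 1 °C and 60% humidity with long days, and 10 of them made up a library; their sexes are not stated. Mature larvae, then subimagoes, the first winged stage, and imagoes, the reproductive adults, were raised from such larvae, and each of their libraries pooled 6 animals, 3 of each sex. A further group of 3 mixture libraries, each with 5 young larvae and 2 animals of every later stage, entered the model fit but no comparison here. The labels name no treatment or genotype for any group. In whole bodies fewer cells of a type and less RNA per cell cannot be told apart.

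Libraries held 36550269 to 74837923 assigned reads, and the members took up 559 to 1104 CPM, which are counts relative to the library total. Mature larva replicate 1 was the deepest library and stood apart. On the first principal component it lay at 69.5, against -21.0 and -38.5 for the other mature larvae and 136.7 to 173.4 for the young larvae. Reads on unigenes with protist or fungal best hits made up 1.74% to 8.00% in young larvae and 2.45% in mature larva replicate 1, against 0.193% to 0.488% in all other libraries. This share moved with every comparison that has young larvae in it, and its part in them was not tested. Markers of nervous tissue were found throughout, and 26 of 27 unigenes named as neuronal or synaptic proteins had reads at each stage. Their summed level was 720 to 785 CPM in young larvae, 716 to 989 in mature larvae, 754 to 854 in subimagoes and 906 to 963 in imagoes, where CPM, as in all that follows, are taken after TMM scaling between libraries.

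Compared by RPKM, the deposited measure of reads for length and library size, the most abundant member over the 12 stage libraries was a kainate-type glutamate receptor unigene at a mean of 33.5 RPKM (13_Contig_5418). Next came an octopamine receptor type 2 at 22.8 RPKM (13_Contig_2269), the GABA-receptor-associated protein at 20.3 (13_Contig_6117), an ionotropic glutamate receptor at 17.8 (13_Contig_724) and the GABA channel subunit Rdl at 17.2 (13_Contig_5508). At the other end were 8 members that failed the filter on low counts, with means of 0.0294 to 0.237 RPKM, and they were not tested. They comprise 3 nicotinic subunits, a GABA-gated chloride channel, a kainate 2 receptor, the oyster-like dopamine receptor, neuropeptide receptor A33 and a second capa receptor (13_Contig_45835). The capa receptor had 20 reads in young larvae, 4 in mature larvae, 0 in subimagoes and 1 in imagoes, all stages with 3 libraries.

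**Figure D1:**
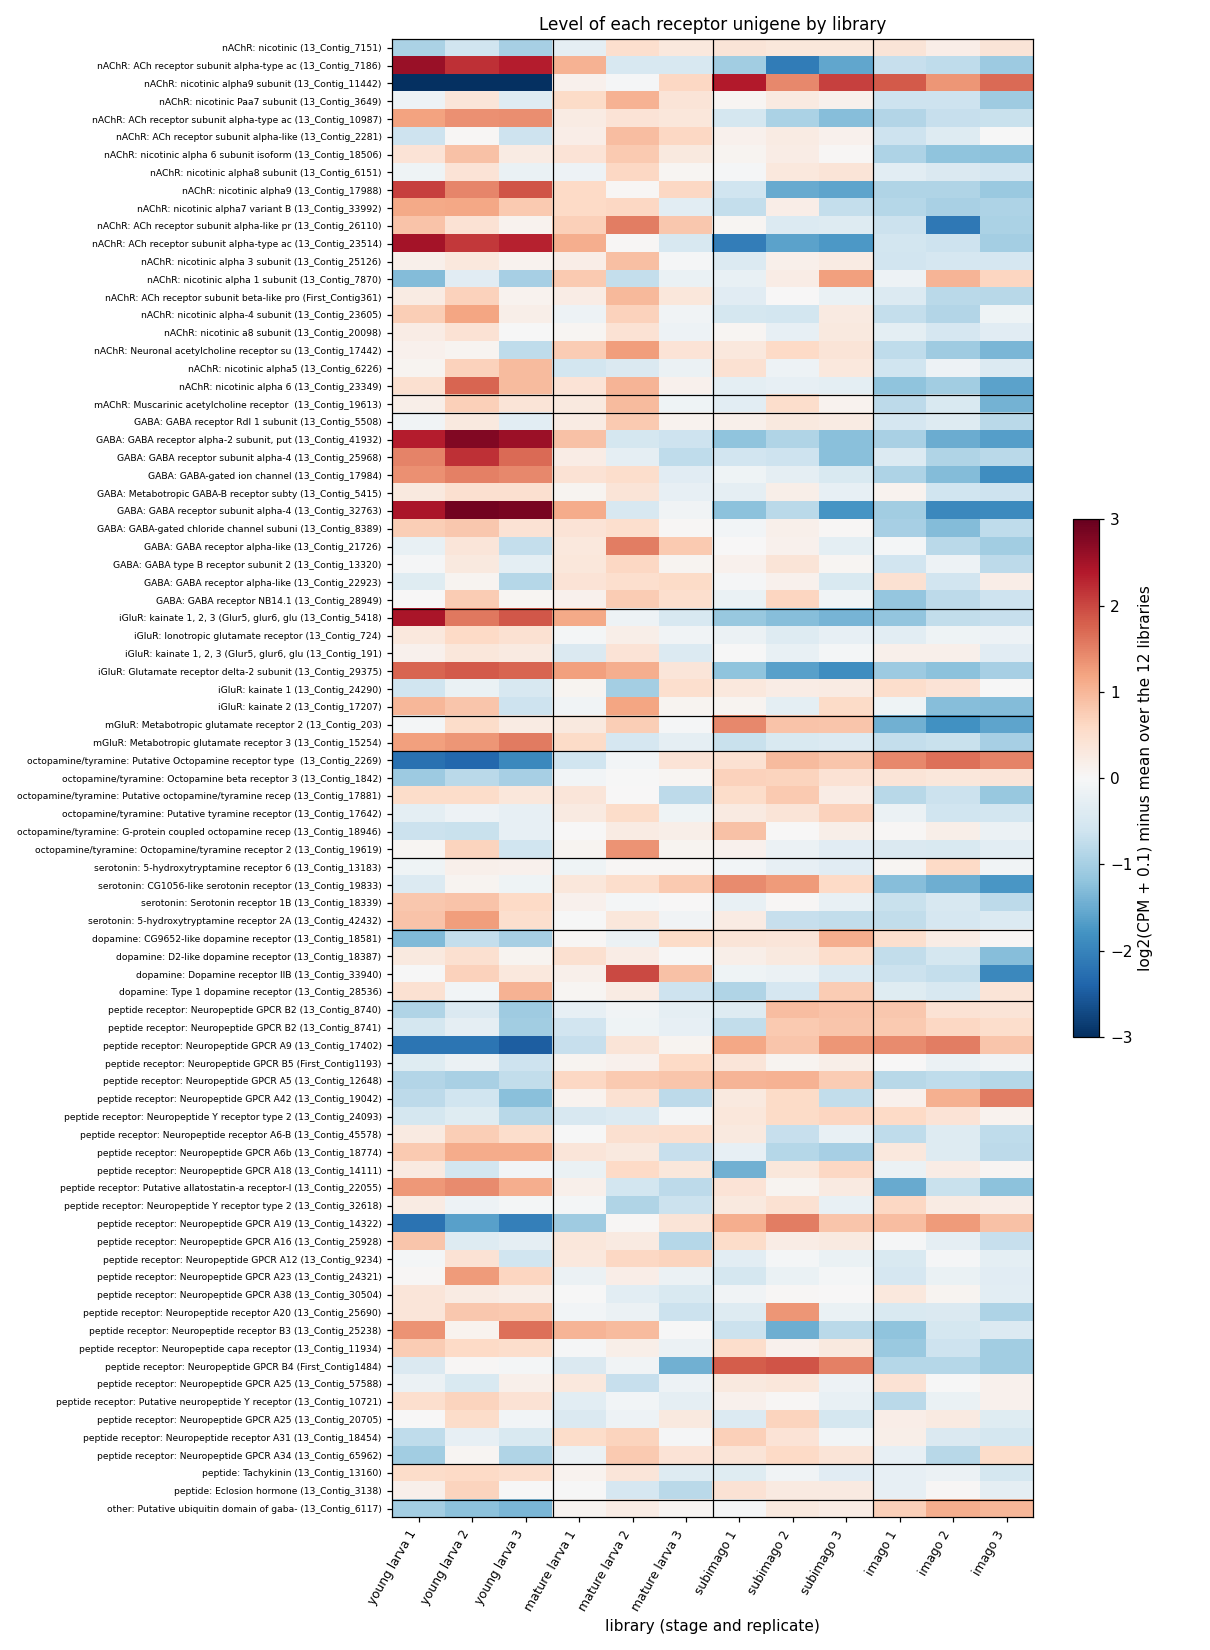
Level of each of the 83 tested members (rows, by receptor class) in the 12 stage libraries (columns, young larva to imago), as log2(CPM + 0.1) minus the member's mean over the libraries, red above and blue below. A block of channel subunits is red in the 3 young larvae, and nicotinic alpha9 13_Contig_11442, octopamine receptor type 2 and the neuropeptide receptors A9 and A19 are blue there.

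Between the ends of the life cycle more members were called lower than higher. Of the 83 tested members 44 (53.0%) were called lower in imagoes than in young larvae and 13 (15.7%) higher, by edgeR's quasi-likelihood test at an adjusted p under 0.05. Among all 34131 unigenes tested, 41.5% were called lower and 28.8% higher in that comparison, and among the 11941 with an arthropod best hit 35.2% lower and 43.8% higher. The members' median log2 change was -0.84, against -0.68 over all unigenes tested and 0.24 over those with an arthropod hit. With scaling on arthropod hits these medians were -1.38, -1.22 and -0.30, so the sign of the last depends on the scaling. The lower members numbered 36 without young larva replicate 2 and 36 without imago replicate 3. The ion channels and the G protein coupled receptors had different counts. Of 35 tested channel unigenes 24 (68.6%) were lower and 3 (8.57%) higher in imagoes than in young larvae, with a median of -1.35. Of 45 tested G protein coupled receptors 19 (42.2%) were lower and 9 (20.0%) higher, with a median of -0.50. That lower share was near the 41.5% of all unigenes tested, with 35.2% among arthropod hits. The difference between the classes was not tested. Muscle genes moved the same way as the channels. Of 35 tested unigenes of muscle structure 26 were lower and 1 was higher, and their sum was 1359 to 1559 CPM in imagoes and 25202 to 36265 CPM in young larvae. Of the 48 unigenes in the list, 4 had no read in imagoes and 4 others none in young larvae. The part of muscle in the channel counts was not tested.

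Step by step, the changes were fewer. Mature larvae had 14 members (16.9%) higher and 15 (18.1%) lower than young larvae. Of all unigenes tested 25.3% were higher and 9.73% lower at this step, and of those with arthropod hits 37% and 15.9%. The split moved with the scaling. Size factors from DESeq2 gave 9 higher and 19 lower members, beside 22.9% and 12.6% of all unigenes. Scaling on arthropod hits gave 9 and 21, beside 22.4% and 13.4%, and library totals gave 6 and 28, beside 15.8% and 14.7%. All 15 lower members were called under each of these 3 scalings. Without mature larva replicate 2 or young larva replicate 3 only 9 members were higher.

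In subimagoes 7 members were higher and 10 lower than in mature larvae. These shares, 8.43% and 12.0%, are to be read beside the 8.98% and 14.2% of all unigenes tested, and the 16.4% and 15.3% of those with arthropod hits. Of the 7 higher members 6 were G protein coupled receptors while 9 of the 10 lower ones were channels. Calls at this step were fewer in several fits that left out 1 library. There were 3 higher and 5 lower without mature larva replicate 1, 4 higher without mature larva replicate 2, and 6 lower without subimago replicate 1. There were 3 and 2 without subimago replicate 2, and 2 and 2 without subimago replicate 3. Each such fit was filtered and adjusted anew, so a lost call cannot be laid to the left-out library alone. Calls over all unigenes fell too, to 2.68% higher and 5.28% lower without mature larva replicate 1, 2.01% and 2.74% without subimago replicate 2, and 2.19% and 3.22% without subimago replicate 3. Imago replicate 1 is not in this comparison. Without it 2022 of 39093 unigenes were called higher and 3220 lower, against 3064 and 4833 of 34131 in the main fit. The 4 calls that held whichever library was left out were octopamine beta receptor 3 and neuropeptide receptor B4 among the higher members, and the acr-16-like 13_Contig_23514 and the delta-2 glutamate receptor among the lower ones. Library totals alone as the scaling gave 8 higher and 5 lower members, beside 13.3% and 8.92% of all unigenes.

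In imagoes 16 members (19.3%) were lower than in subimagoes and 1 (1.2%) higher, against 9.26% and 6.74% of all unigenes tested and 11% and 13.6% of those with arthropod hits. The median change of the members was -0.40 and that of all unigenes tested -0.02. The 16 were 7 channels and 9 G protein coupled receptors, and the 1 higher member was the GABA-receptor-associated protein, so no receptor was called higher. At an unadjusted p under 0.05, 3 receptors were higher and 24 lower, where 9386 of the 34131 unigenes passed in either direction, and DESeq2 called 3 and 19, where it called 13.1% of all unigenes higher and 10.8% lower. Without imago replicate 3 the lower members numbered 9. The higher members numbered 3 without mature larva replicate 1 or 3, and 2 without mature larva replicate 2. With library totals as the scaling 2 members were higher and 8 lower, beside 6.38% and 5.76% of all unigenes, and the size factors of DESeq2 gave 4 and 15, beside 10% and 8.27%. Of the muscle list 1 of 35 was lower and 1 higher at this step, at 1359 to 1559 CPM in imagoes and 1216 to 1604 CPM in subimagoes. Neuronal and synaptic unigenes had 4 lower and 4 higher of 26 tested. Successive comparisons share libraries, mature larvae in the first pair of steps and subimagoes in the second, so their values are only given side by side.

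**Figure D2:**
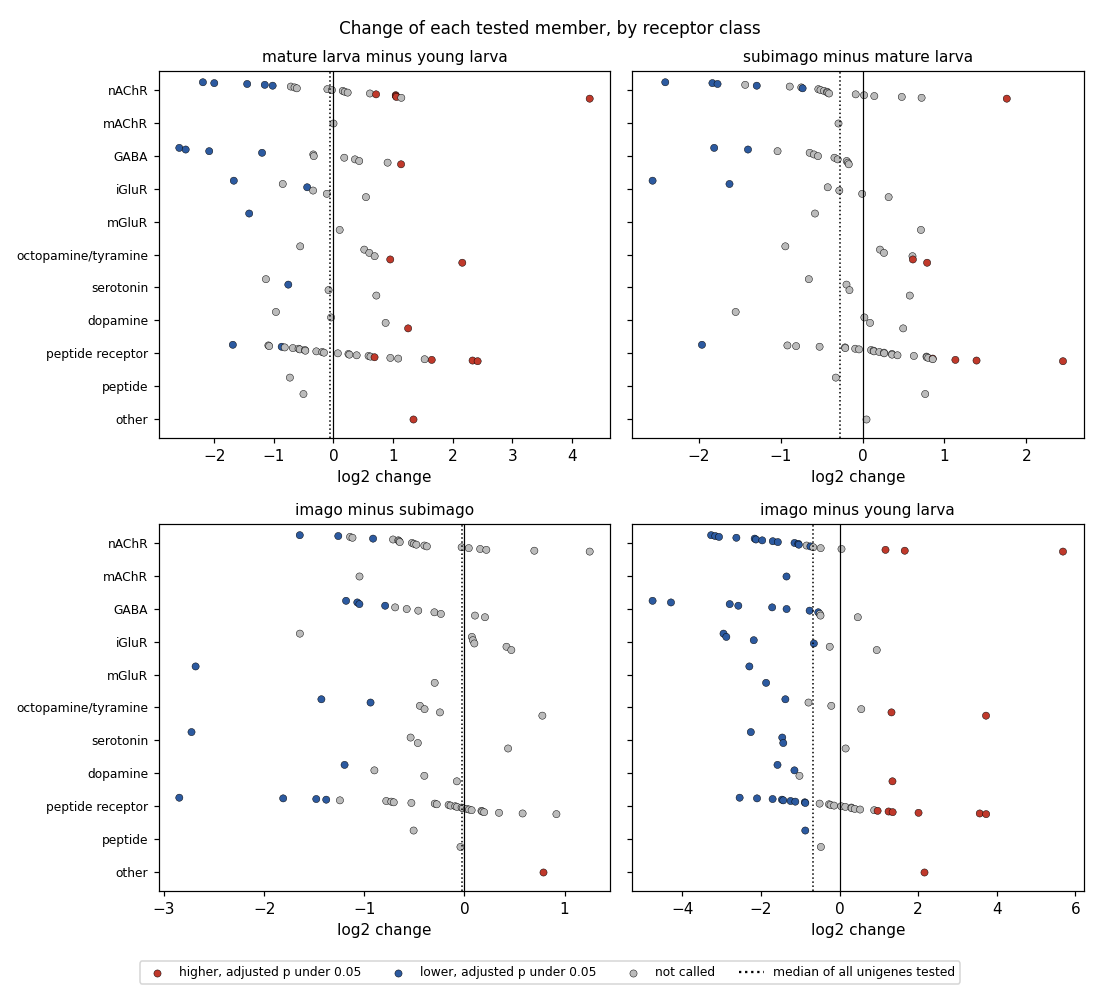
Log2 change of each of the 83 tested members (points) by receptor class (rows) in the 4 comparisons, red where called higher and blue where called lower at an adjusted p under 0.05, with the median of all unigenes tested as a dotted line. Imagoes against young larvae show 44 blue and 13 red points, and imagoes against subimagoes 16 blue and 1 red.

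Taking all 4 stages together, 59 of the 83 members (71.1%) varied, against 75.2% of all unigenes tested and 85.7% of those with arthropod hits. The stage with the highest mean level was the young larva for 37 members, the mature larva for 17, the subimago for 19 and the imago for 10. Among all 34131 unigenes tested the shares of these stages were 43.1%, 14.9%, 19.2% and 22.8%. Among the 11941 unigenes with arthropod hits they were 34.8%, 11.1%, 18.1% and 36.0%. None of the 11 GABA receptor members had its highest level in a winged stage, with 6 highest in young and 5 in mature larvae. Of 6 octopamine and tyramine receptor members 5 were highest in a winged stage.

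Nicotinic acetylcholine receptor subunits split into several patterns. Of 20 tested, 13 (65.0%) were lower and 3 (15.0%) higher in imagoes than in young larvae, with a median log2 change of -1.10. Of all unigenes tested 41.5% were lower and 28.8% higher, and of those with arthropod hits 35.2% and 43.8%. At the single steps mature larvae had 5 higher and 5 lower than young larvae, followed by 1 higher and 5 lower in subimagoes than in mature larvae, and 3 lower in imagoes than in subimagoes. The even split of the first step was 2 higher and 5 lower with size factors from DESeq2 or scaling on arthropod hits, and 1 and 8 with library totals. At the last step edgeR called no subunit higher, 1 was at an unadjusted p under 0.05, and DESeq2 called 1. The summed level of all 23 was 185 ± 27 CPM in young larvae, 233 ± 43 in mature larvae, 205 ± 1.6 in subimagoes and 153 ± 9.9 in imagoes (SD, n = 3 each).

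The widest range of any tested member belonged to an alpha9-named subunit, 13_Contig_11442, with a bee best hit. It had 0.632, 0.262 and 0.182 CPM in the young larvae, 6.37, 5.67 and 9.01 in the mature larvae, 30.9, 16.1 and 24.4 in the subimagoes, and 21.2, 14.8 and 19.0 in the imagoes. Every later library was above every young larva, every winged one was above every mature larva, and subimagoes and imagoes overlapped. It was higher in mature larvae than in young larvae by 4.30 ± 0.44 on the log2 scale (SE, adjusted p = 6.08e-06, edgeR) and in subimagoes than in mature larvae by 1.76 ± 0.39 (adjusted p = 0.0131). The second call rose to an adjusted p of 0.0504 without subimago replicate 3. In imagoes it stood 5.68 ± 0.47 above young larvae (adjusted p = 4.54e-07).

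Another unigene with an alpha9 name but a locust best hit, 13_Contig_17988, went the opposite way. Its levels were 3.93, 2.60 and 3.53 CPM in young larvae, 1.38, 0.900 and 1.39 in mature larvae, 0.548, 0.244 and 0.228 in subimagoes, and 0.421, 0.424 and 0.349 in imagoes. Young larvae were all above mature larvae, and these all above the winged stages, which overlapped. The log2 change from young larvae to imagoes was -3.06 ± 0.41 (adjusted p = 3.38e-05). The call of subimagoes against mature larvae, -1.84 ± 0.39 with an adjusted p of 0.0117, was lost without subimago replicate 2 (0.0630) or 3.

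A trio that shares 1 termite protein named after acr-16, a subunit of muscle nicotinic receptors in Caenorhabditis elegans, fell together. The most abundant, 13_Contig_7186, had 35.6, 26.8 and 30.2 CPM in young larvae, 12.0, 4.13 and 4.14 in mature larvae, 2.74, 1.28 and 1.91 in subimagoes, and 3.58, 3.37 and 2.68 in imagoes. Mature larva replicate 1 lay nearest the young larvae, and no larva of either age overlapped a winged library. Its change was -2.19 ± 0.42 from young to mature larvae (adjusted p = 0.00124) and -3.26 ± 0.44 from young larvae to imagoes (adjusted p = 4.02e-05). The other two, 13_Contig_23514 and 13_Contig_10987, changed by -3.16 ± 0.41 and -2.16 ± 0.30 from young larvae to imagoes. All 3 were also called lower in subimagoes than in mature larvae. There the call of 13_Contig_7186 had an adjusted p up to 0.0765 without 1 library (mature larva replicate 1, subimago replicates 2 and 3), and that of 13_Contig_10987 up to 0.0708 (subimago replicates 2 and 3) and was lost with library totals. Between subimagoes and imagoes none was called, although 13_Contig_23514 came close at 1.25 ± 0.40 (adjusted p = 0.0530), with 1.03, 0.975 and 0.718 CPM in imagoes and 0.295, 0.447 and 0.400 CPM in subimagoes.

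The nicotinic unigene with the highest RPKM, 13_Contig_7151, was higher in the mature larva than in the young larva, with no call at the later steps. It had 46.3, 79.0 and 69.4 CPM in mature larvae, against 28.8, 36.8 and 28.1 in young larvae, a log2 difference of 1.06 ± 0.18 (adjusted p = 0.000399). Subimagoes averaged 71.6 ± 1.5 CPM and imagoes 70.2 ± 5.2 CPM (SD, n = 3 each), within the spread of each other. With library totals as the scaling this first step was not called.

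Further subunits were low in the imago. The neuronal alpha-7-named 13_Contig_17442 had 0.650, 0.509 and 0.388 CPM in imagoes, against 1.48, 1.81 and 1.57 in subimagoes, a log2 change of -1.64 ± 0.34 (adjusted p = 0.00680). An alpha 6 isoform, 13_Contig_18506, had 3.00, 2.48 and 2.41 CPM in imagoes, against 6.15, 6.79 and 5.97 in subimagoes, a change of -1.26 ± 0.23 (adjusted p = 0.00328). In both the imagoes lay below all subimagoes. The alpha-7-named subunit was also called higher in mature than in young larvae (1.04 ± 0.34, adjusted p = 0.0289), but not without mature larva replicate 2 (adjusted p = 0.181), young larva replicate 3 or subimago replicate 3. That call was also lost under each other scaling, without a filter, with the stricter filter and without the mixture libraries, with an adjusted p up to 0.360 (library totals). The longest member of all, a Paa7 subunit of 8752 bp (13_Contig_3649), had 103 ± 24 CPM in mature larvae against 62.5 ± 17 in young larvae, and 37.4 ± 6.3 in imagoes against 70.4 ± 5.1 in subimagoes (SD, n = 3 each). Both differences were called, at adjusted p-values of 0.0161 and 0.0101, which became 0.137 without mature larva replicate 2 and 0.0533 without imago replicate 3. The larval call was lost as well without young larva replicate 1 or 3, under each other scaling, with the stricter filter and without the mixture libraries, and the imago call with library totals.

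The 1 muscarinic receptor, a G protein coupled acetylcholine receptor of A-type (13_Contig_19613), had 0.899, 1.17 and 0.544 CPM in imagoes, against 1.85, 2.75 and 2.16 in young larvae. The groups did not overlap, and the change was -1.37 ± 0.37 (adjusted p = 0.00604). No single step was called.

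GABA receptors had more calls between the ends of the life cycle than at any single step, as did all unigenes tested. Of 11 tested, edgeR called 8 (72.7%) lower in imagoes than in young larvae and none higher. Of all unigenes tested it called 41.5% lower and 28.8% higher, and of those with arthropod hits 35.2% and 43.8%. No GABA receptor was higher at an unadjusted p under 0.05 or by DESeq2 either. DESeq2 called 9 lower, where 39.4% of all unigenes were lower and 29.1% higher by that test. Their median log2 change was -1.35. In mature larvae 1 (9.09%) was higher and 4 (36.4%) lower than in young larvae, beside 25.3% and 9.73% of all unigenes tested. Then 2 (18.2%) were lower in subimagoes than in mature larvae, beside 14.2% of all unigenes. At the last step 4 (36.4%) were lower in imagoes than in subimagoes, beside 9.26%. The summed level of the 12 was 167 ± 27 CPM in young larvae, 161 ± 38 in mature larvae, 136 ± 7.8 in subimagoes and 81.0 ± 11 in imagoes (SD, n = 3 each), most of it Rdl.

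Rdl, the subunit of the chloride channel that mediates fast inhibition in insect brains, had 61.5, 66.5 and 50.2 CPM in imagoes, against 97.5, 108 and 104 in subimagoes (13_Contig_5508). The groups were apart, with a change of -0.79 ± 0.19 (adjusted p = 0.0148). The call had an adjusted p of 0.0754 without imago replicate 3 and was also lost without imago replicate 1, subimago replicate 2, or with library totals as the scaling. Between the larval stages Rdl was not called, at 117 ± 30 CPM in mature larvae and 86.4 ± 19 CPM in young larvae (SD, n = 3 each).

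Falls were also large in 3 unigenes with alpha-type names of the kind used for vertebrate GABA subunits. One pair shares a termite protein named alpha-4. Its first unigene, 13_Contig_32763, had 5.50, 7.52 and 7.36 CPM in young larvae, 2.14, 0.633 and 0.851 in mature larvae, 0.337, 0.488 and 0.200 in subimagoes, and 0.402, 0.170 and 0.175 in imagoes. Each of these stages lay below the young larvae without overlap, and mature larva replicate 1 was the highest of its group. The change from young larvae to imagoes was -4.75 ± 0.60 (adjusted p = 2.14e-05), the steepest fall among the members. The second, 13_Contig_25968, averaged 1.85 ± 0.37 CPM in imagoes and 11.0 ± 3.0 CPM in young larvae (SD, n = 3 each), a change of -2.57 ± 0.51 (adjusted p = 0.000923). An alpha-2-named unigene with a louse best hit, 13_Contig_41932, had 0.440, 0.276 and 0.233 CPM in imagoes, against 5.31, 7.16 and 6.20 in young larvae, a change of -4.29 ± 0.47 (adjusted p = 6.02e-06). In subimagoes against mature larvae the calls of 13_Contig_32763 and 13_Contig_41932 were lost without mature larva replicate 1, at adjusted p-values of 0.194 and 0.290, without each of the 3 subimagoes, with library totals and with the replicate block; that of 13_Contig_41932 was also lost without young larva replicate 3, imago replicate 2 or 3, a filter or the mixture libraries.

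A GABA-gated ion channel with a beetle best hit, 13_Contig_17984, declined more evenly. It had 27.9, 31.1 and 29.6 CPM in young larvae, 14.6, 15.5 and 8.53 in mature larvae, 9.80, 8.86 and 7.79 in subimagoes, and 5.59, 4.33 and 2.87 in imagoes. Only mature larvae and subimagoes overlapped. The changes were -1.20 ± 0.26 from young to mature larvae (adjusted p = 0.00292) and -1.05 ± 0.26 from subimagoes to imagoes (adjusted p = 0.0163). The second was not called without imago replicate 3 (adjusted p = 0.0718), imago replicate 2 or subimago replicate 1, or with library totals.

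The metabotropic GABA-B receptors, which are G protein coupled, moved little. A subtype 2 unigene, 13_Contig_5415, had 9.11, 5.56 and 5.47 CPM in imagoes, against 10.5, 11.8 and 11.8 in young larvae, a change of -0.76 ± 0.24 (adjusted p = 0.0145) that was not called without imago replicate 3 (0.0854) or 2. The other, 13_Contig_13320, averaged 3.67 ± 0.87 CPM in imagoes and 5.20 ± 1.1 in young larvae (SD, n = 3 each) and was not called (adjusted p = 0.0794).

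Ionotropic glutamate receptors had 4 of 6 tested members lower in imagoes than in young larvae, beside 41.5% of all unigenes tested. None was higher by edgeR, at an unadjusted p under 0.05 or by DESeq2. Their summed level was 176 ± 3.3 CPM in young larvae, 111 ± 14 in mature larvae, 81.3 ± 5.6 in subimagoes and 87.1 ± 5.1 in imagoes (SD, n = 3 each). Calls lower numbered 2 (33.3%) in mature larvae against young larvae, beside 9.73% of all unigenes tested. They numbered 2 (33.3%) in subimagoes against mature larvae, beside 14.2%. No member was called between subimagoes and imagoes, at an unadjusted p under 0.05 or by DESeq2 either.

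The kainate-type 13_Contig_5418, the member with the highest RPKM, had 56.1, 30.8 and 37.7 CPM in young larvae, 22.6, 9.14 and 7.33 in mature larvae, 4.62, 4.19 and 3.85 in subimagoes, and 4.46, 6.15 and 6.33 in imagoes. Both larval stages were above the winged ones and apart from each other. It changed by -1.67 ± 0.39 from young to mature larvae (adjusted p = 0.00516) and by -2.88 ± 0.41 from young larvae to imagoes (adjusted p = 6.86e-05). The call of subimagoes against mature larvae, at -1.63 ± 0.40, was lost with library totals and without mature larva replicate 1, subimago replicate 2 or 3, with an adjusted p up to 0.0782. A unigene that matches the same mosquito protein, 13_Contig_191, was not called at any step and averaged 10.5 ± 2.0 CPM in imagoes and 12.5 ± 0.92 CPM in young larvae (SD, n = 3 each).

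A delta-2-named glutamate receptor, 13_Contig_29375, was lower in subimagoes than in mature larvae. It had 1.62, 1.20 and 0.999 CPM in subimagoes, against 9.24, 8.40 and 5.08 in mature larvae, while young larvae averaged 13.7 ± 0.41 and imagoes 1.76 ± 0.15 CPM (SD, n = 3 each). The subimagoes were all below the mature larvae, with a log2 change of -2.57 ± 0.46 (adjusted p = 0.00541). The longer 13_Contig_724, an ionotropic glutamate receptor with a moth best hit, moved less, at 68.6 ± 4.6 CPM in imagoes and 108 ± 11 CPM in young larvae (SD, n = 3 each). Its change was -0.65 ± 0.13 (adjusted p = 0.00120). It was also called lower in mature larvae than in young larvae, at -0.44 (adjusted p = 0.0223, edgeR). That call was lost under 9 of 20 alternatives, each leaving out 1 library, with an adjusted p up to 0.158.

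Both metabotropic glutamate receptors, G protein coupled receptors that adjust synapses, were lower in imagoes than in young larvae, but by different courses. Metabotropic glutamate receptor 2, 13_Contig_203, had 30.2, 46.1 and 37.3 CPM in young larvae, 38.5, 52.6 and 31.0 in mature larvae, 86.4, 57.7 and 56.1 in subimagoes, and 11.6, 8.99 and 10.5 in imagoes. Imagoes lay below every other library, and subimagoes above all larvae. The change from subimagoes to imagoes was -2.68 ± 0.26 (adjusted p = 6.09e-05), whereas the difference of subimagoes from mature larvae, 0.71 ± 0.25, just missed the threshold (adjusted p = 0.0535). Metabotropic glutamate receptor 3, 13_Contig_15254, was lower from the mature larva on, with 2.15, 0.967 and 1.16 CPM in mature larvae, against 3.46, 3.66 and 4.32 in young larvae. These did not overlap, and the change was -1.41 ± 0.32 (adjusted p = 0.00396).

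**Figure D3:**
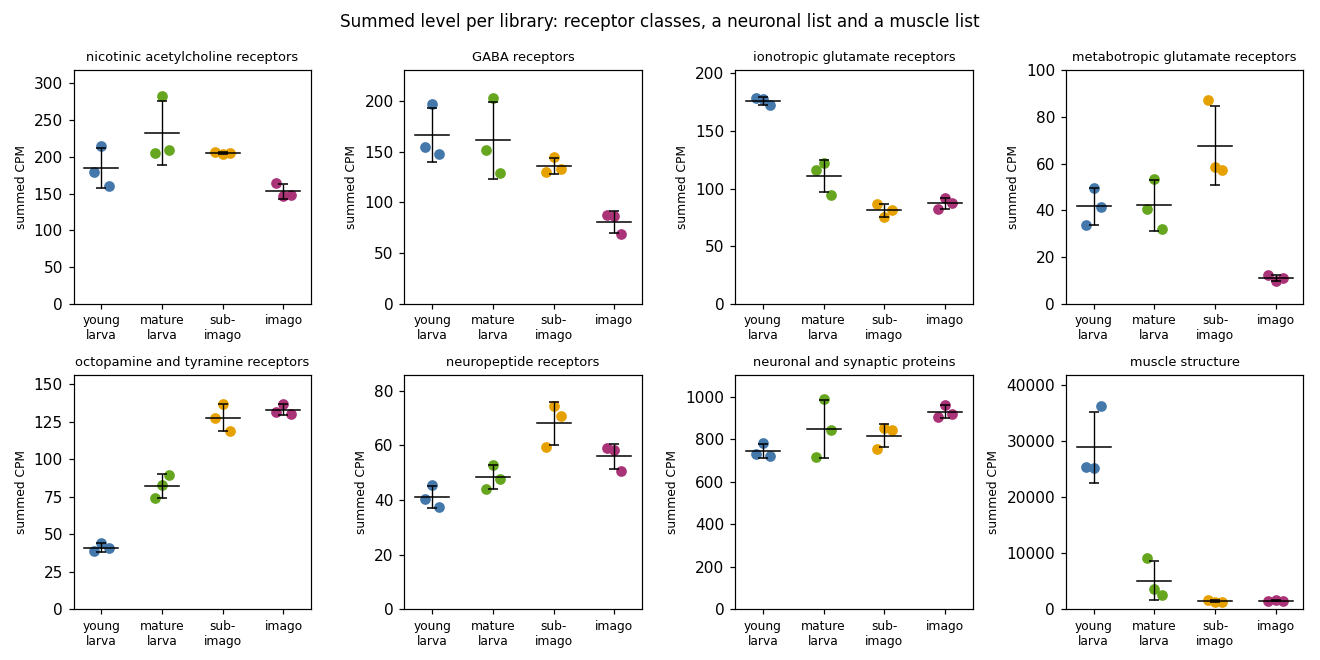
Summed CPM of 6 receptor classes and of the lists of neuronal and muscle unigenes, by stage (young larva to imago), with points for libraries, a horizontal line for the mean and bars for the SD (n = 3). Octopamine and tyramine receptors go from a mean of 41.0 CPM in young larvae to 133 CPM in imagoes, while GABA receptors end at 81.0 and the muscle list at 1463 CPM.

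Octopamine and tyramine are the insect counterparts of noradrenaline and adrenaline, and the summed level of their receptors was higher in the later stages. Summed over 6 unigenes they reached 38.4 to 43.9 CPM in young larvae, 73.9 to 89.6 in mature larvae, 119 to 137 in subimagoes and 130 to 137 in imagoes. The winged libraries lay above all mature larvae and these above all young larvae. Most of the sum came from 2 unigenes. Of 6 tested members, 2 were higher and 1 lower in imagoes than in young larvae, beside 28.8% and 41.5% of all unigenes tested. Their median log2 change was 0.17, and -0.37 with scaling on arthropod hits.

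The octopamine receptor type 2, 13_Contig_2269, was higher at each later stage. It had 4.05, 3.78 and 5.03 CPM in young larvae, 13.0, 18.6 and 25.9 in mature larvae, 26.9, 37.6 and 34.7 in subimagoes, and 53.6, 61.4 and 55.1 in imagoes. No pair of successive stages overlapped. It rose by 2.16 ± 0.27 in mature larvae over young larvae (adjusted p = 3.84e-05) and by 3.73 ± 0.29 in imagoes over young larvae (adjusted p = 2.67e-07). At the middle step, 0.79 ± 0.26 with an adjusted p of 0.0475, the call was lost without any library other than mature larva replicate 3, up to 0.180 without mature larva replicate 1, while the last step, 0.78 ± 0.26, was not called (adjusted p = 0.0641).

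Octopamine beta receptor 3, 13_Contig_1842, a receptor of the kind that raises cyclic AMP, followed the same direction with little spread. Its levels were 25.9, 31.4 and 27.4 CPM in young larvae, 51.7, 54.8 and 57.4 in mature larvae, 88.8, 87.9 and 74.3 in subimagoes, and 71.7, 69.7 and 70.4 in imagoes. The first 3 stages were fully apart, and the imagoes lay just below the subimagoes. It was higher by 0.95 ± 0.11 in mature larvae than in young larvae (adjusted p = 1.92e-05) and by 0.61 ± 0.11 in subimagoes than in mature larvae (adjusted p = 0.00540). With library totals as the scaling the first step was not called. Imagoes and subimagoes were not called different (-0.24 ± 0.11, adjusted p = 0.170).

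An octopamine/tyramine receptor with a beetle best hit, 13_Contig_17881, had 2.07, 2.37 and 1.65 CPM in imagoes, against 5.50, 6.50 and 4.40 in subimagoes. The imagoes were all lower, by a log2 change of -1.43 ± 0.30 (adjusted p = 0.00648). A tyramine receptor, 13_Contig_17642, was called lower there too, at -0.94 ± 0.26 (adjusted p = 0.0281), but not without imago replicate 2 or 3 (0.118) or any 1 of the subimagoes, nor with library totals, without a filter, with the replicate block or without the mixture libraries. The other 2 members of the class, 13_Contig_18946 and 13_Contig_19619, were not called in any comparison.

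**Figure D4:**
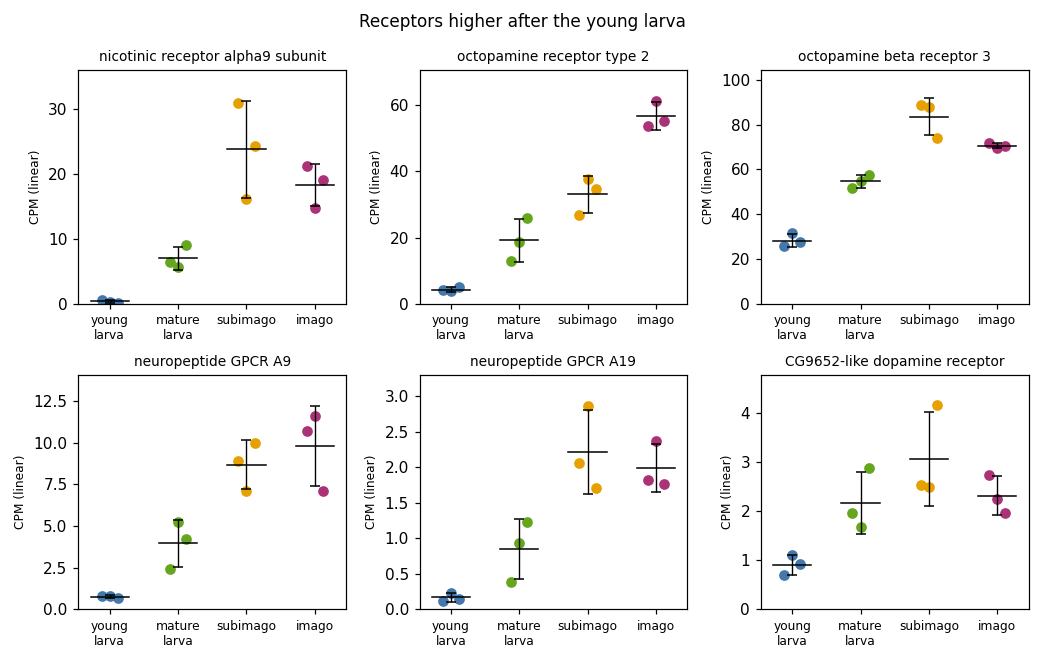
CPM on a linear axis of 6 receptors in each library by stage (young larva to imago), with points for libraries, a horizontal line for the mean and bars for the SD (n = 3). All 3 young larvae lie below every library of a later stage in each panel; octopamine receptor type 2 is highest in imagoes, with 53.6 to 61.4 CPM.

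Serotonin receptors had 3 of 4 members lower in imagoes than in young larvae by edgeR, beside 41.5% of all unigenes tested. The same number was lower, and none higher, at an unadjusted p under 0.05 or by DESeq2, and edgeR called none higher. The most marked was a unigene named CG1056-like, the Drosophila 5-HT2A receptor gene (13_Contig_19833). It had 2.18, 3.11 and 2.65 CPM in young larvae, 3.70, 4.27 and 5.11 in mature larvae, 7.90, 7.15 and 4.42 in subimagoes, and 1.15, 0.997 and 0.796 in imagoes. Imagoes were below all other libraries, and subimagoes and mature larvae overlapped. The change from subimagoes to imagoes was -2.73 ± 0.28 (adjusted p = 7.92e-05), and that of mature against young larvae, 0.72 ± 0.26, fell just outside the threshold (adjusted p = 0.0501).

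Serotonin receptor 1B, 13_Contig_18339, had 2.47, 2.17 and 2.29 CPM in mature larvae, against 4.05, 4.17 and 3.51 in young larvae, a change of -0.76 ± 0.19 (adjusted p = 0.00830) without overlap, not called without a filter on low counts. The receptor with the highest RPKM of the class, named 5-hydroxytryptamine receptor 6 (13_Contig_13183), stayed uncalled throughout, at 16.9 ± 4.6 CPM in imagoes and 15.2 ± 1.7 in young larvae (SD, n = 3 each). The fourth, 13_Contig_42432, had under 0.6 CPM in all libraries and was lower in imagoes than in young larvae by a log2 change of -2.26 ± 0.59 (adjusted p = 0.00501), and was too low to be tested with the stricter filter.

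Dopamine receptors were low, with a summed level of 3.63 to 10.0 CPM in the 12 libraries. A CG9652-like receptor, named after the Drosophila D1-type receptor Dop1R1 (13_Contig_18581), had 1.95, 1.67 and 2.88 CPM in mature larvae, against 0.702, 1.11 and 0.909 in young larvae. The groups did not overlap, and the difference was 1.25 ± 0.31 (adjusted p = 0.00734), not called with library totals as the scaling. It was 1.35 ± 0.31 for imagoes against young larvae (adjusted p = 0.00258). The D2-like receptor 13_Contig_18387, of the type that lowers cyclic AMP, had 1.99, 2.31 and 1.34 CPM in imagoes, against 3.84, 4.17 and 4.94 in subimagoes. Its change was -1.20 ± 0.27 (adjusted p = 0.00969), not called without imago replicate 3 (0.0526) or with library totals.

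Neuropeptide receptors, the largest class, moved in both directions. Of 26 tested, 6 (23.1%) were higher and 9 (34.6%) lower in imagoes than in young larvae. Both shares were below the 28.8% and 41.5% of all unigenes tested. Of those with arthropod hits 43.8% were higher and 35.2% lower, so that the lower share was close to this background. At the steps, mature larvae had 4 (15.4%) higher and 2 (7.69%) lower than young larvae, both below the 25.3% and 9.73% of all unigenes tested. Subimagoes had 4 (15.4%) higher and 1 (3.85%) lower than mature larvae, beside 8.98% and 14.2% of all unigenes. In imagoes 4 (15.4%) were lower than in subimagoes, beside 9.26%. The class's split at the first step turned with the scaling, to 3 higher and 4 lower with size factors from DESeq2, 3 and 6 with scaling on arthropod hits, and 3 and 7 with library totals. None was called higher at the last step by edgeR, at an unadjusted p under 0.05 or by DESeq2. Their sum was 41.1 ± 4.1 CPM in young larvae, 48.3 ± 4.4 in mature larvae, 68.2 ± 7.9 in subimagoes and 56.0 ± 4.7 in imagoes (SD, n = 3 each). Most are named by codes such as A9 or B4 given to planthopper or silkworm receptors, and their peptides are not assigned here.

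Receptor A9, 13_Contig_17402, had 0.795, 0.785 and 0.636 CPM in young larvae, 2.42, 5.23 and 4.23 in mature larvae, 8.94, 7.09 and 10.0 in subimagoes, and 10.7, 11.6 and 7.09 in imagoes. Winged stages overlapped each other and lay above all larvae. It was 2.42 ± 0.33 higher in mature than in young larvae (adjusted p = 7.08e-05) and 3.73 ± 0.34 higher in imagoes than in young larvae (adjusted p = 1.26e-06), both on the log2 scale. Receptor A19, 13_Contig_14322, had the same course at a lower level, with 1.82, 2.37 and 1.77 CPM in imagoes, against 0.117, 0.229 and 0.145 in young larvae. Its difference was 3.57 ± 0.48 (adjusted p = 3.69e-05). At the step from mature larva to subimago both were called, but A9 not without mature larva replicate 1 or 1 of the subimagoes (adjusted p up to 0.0998), and A19 not without 9 of the 12 libraries in turn (up to 0.143).

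Receptor B4, First_Contig1484, was the 1 member called both higher in subimagoes than in mature larvae and lower in imagoes than in subimagoes. It had 0.912, 1.29 and 1.22 CPM in young larvae, 0.906, 1.17 and 0.402 in mature larvae, 4.72, 4.96 and 3.82 in subimagoes, and 0.650, 0.657 and 0.563 in imagoes. Every subimago was above every other library. The rise in subimagoes over mature larvae was 2.45 ± 0.35 (adjusted p = 0.00184) and the change in imagoes from subimagoes -2.85 ± 0.36 (adjusted p = 0.000258). Both held without any 1 library.

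Receptor A5, 13_Contig_12648, was high in the mature larva and the subimago. It had 2.41, 2.22 and 2.63 CPM in young larvae, 6.96, 7.77 and 8.06 in mature larvae, 9.19, 9.35 and 7.71 in subimagoes, and 2.47, 2.59 and 2.43 in imagoes. The middle stages overlapped each other and were apart from the first and the last. The differences were 1.65 ± 0.18 for mature against young larvae (adjusted p = 1.24e-05) and -1.81 ± 0.18 for imagoes against subimagoes (adjusted p = 7.54e-05). Imagoes and young larvae were not called different (0.04 ± 0.18).

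A receptor named for allatostatin-A, a peptide known in insects for acting on gut, feeding and hormone glands, was 13_Contig_22055. It had 3.86, 4.20 and 3.33 CPM in young larvae, 1.69, 1.00 and 0.827 in mature larvae, 2.04, 1.59 and 1.83 in subimagoes, and 0.459, 0.912 and 0.582 in imagoes. Young larvae stood above all others, and imagoes below all subimagoes. The change of imagoes against young larvae was -2.54 ± 0.44 (adjusted p = 0.000301). That of imagoes against subimagoes, -1.48 ± 0.42 with an adjusted p of 0.0328, was lost without any 1 of 6 libraries, up to 0.140 without imago replicate 1, and also with library totals or without a filter.

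The capa receptor 13_Contig_11934, named for a peptide that acts on the insect excretory tubules, had 0.459, 0.679 and 0.485 CPM in imagoes, against 1.64, 1.22 and 1.37 in subimagoes. The imagoes were all lower, with a change of -1.38 ± 0.26 (adjusted p = 0.00341). Receptor B3, 13_Contig_25238, was lower in subimagoes than in mature larvae, by -1.96 ± 0.51 (adjusted p = 0.0232), with 0.358, 0.163 and 0.314 CPM in subimagoes, against 1.35, 1.30 and 0.615 in mature larvae. That call was lost without mature larva replicate 1 or any 1 subimago (up to 0.102). A neuropeptide Y receptor type 2, 13_Contig_24093, was higher in imagoes than in young larvae by 0.97 ± 0.24 (adjusted p = 0.00393), at 4.77 ± 0.82 CPM in imagoes and 2.44 ± 0.41 CPM in young larvae (SD, n = 3 each). With scaling on arthropod hits this was 0.42 and not called (adjusted p = 0.105).

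The B2-named pair shares 1 planthopper protein. 13_Contig_8740 was higher in imagoes than in young larvae by 1.35 ± 0.31 (adjusted p = 0.00242) and 13_Contig_8741 by 1.25 ± 0.36 (adjusted p = 0.00945), which was 0.69 and not called with scaling on arthropod hits (adjusted p = 0.0945). In subimagoes they had 5.44, 13.6 and 13.0 CPM and 2.55, 7.48 and 7.76 CPM, so that in both unigenes subimago replicate 1 lay among the larvae and the other subimagoes above them.

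**Figure D5:**
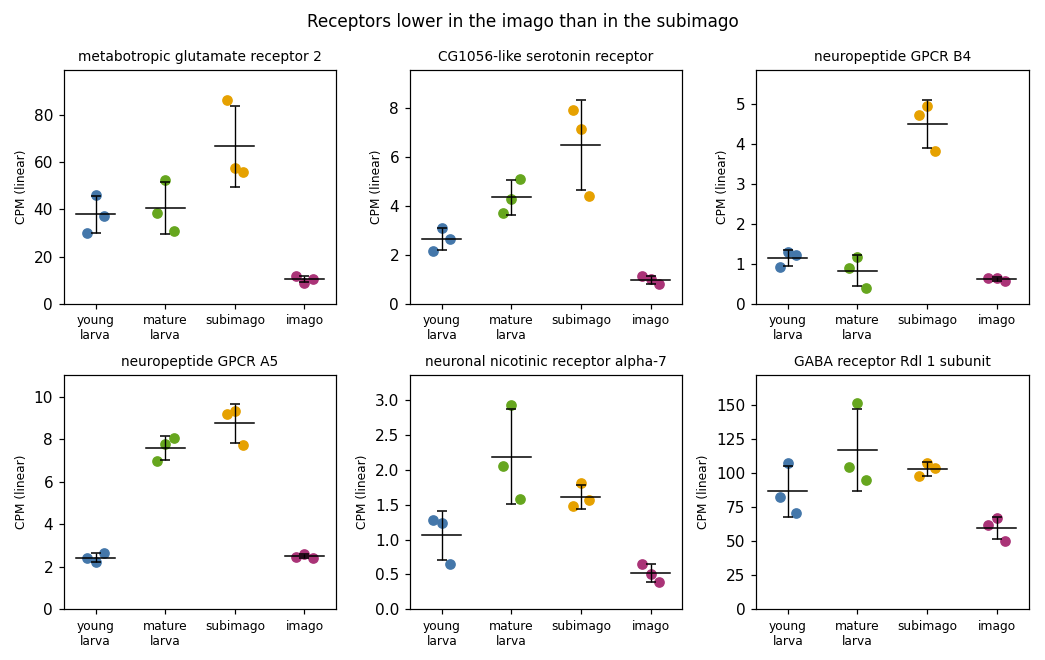
CPM on a linear axis of 6 receptors called lower in imagoes than in subimagoes, in each library by stage (young larva to imago), with points for libraries, a horizontal line for the mean and bars for the SD (n = 3). All 3 imagoes lie below all 3 subimagoes in each panel, and receptor B4 is high only in the subimagoes, at 3.82 to 4.96 CPM.

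Of the 2 peptides of the set 1 was called, lower in imagoes than in young larvae. Eclosion hormone, the neuropeptide that starts ecdysis behaviour in insects, had 2.43, 3.52 and 2.14 CPM in young larvae, 2.16, 1.50 and 1.21 in mature larvae, 2.99, 2.64 and 2.65 in subimagoes, and 1.82, 2.23 and 1.79 in imagoes (13_Contig_3138). Mature larvae overlapped young larvae and lay below all subimagoes. It was not called in any comparison, although mature larvae came close below young larvae, at -0.73 ± 0.28 (adjusted p = 0.0586), and subimagoes close above mature larvae, at 0.76 ± 0.28 (adjusted p = 0.0626). The first was called under 7 of 20 alternatives and the second with DESeq2. Imagoes against young larvae, at -0.47 (adjusted p = 0.141), were called under 2, which are scaling on arthropod hits (-1.02) and the stricter filter (-0.78). Tachykinin, 13_Contig_13160, a brain and gut peptide, had 13.2, 13.8 and 10.7 CPM in imagoes, against 23.1, 23.8 and 22.2 in young larvae. The groups were apart, by a log2 change of -0.87 ± 0.19 (adjusted p = 0.00150).

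The GABA-receptor-associated protein, a ubiquitin-like protein of autophagy, was the only member that edgeR called higher in imagoes than in subimagoes (13_Contig_6117), where DESeq2 called 4. It had 9.73, 8.52 and 7.70 CPM in young larvae, 21.2, 23.1 and 20.8 in mature larvae, 19.5, 24.3 and 23.3 in subimagoes, and 32.6, 43.0 and 39.6 in imagoes. Young larvae were lowest, imagoes highest, and the middle stages overlapped. The last step was 0.78 ± 0.16 (adjusted p = 0.00530) and imagoes stood 2.15 ± 0.16 above young larvae (adjusted p = 2.02e-07).

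Other genes of the same pathways gave these counts. Those for imagoes against young larvae are to be read beside the 28.8% higher and 41.5% lower of all unigenes tested. Of those with arthropod hits 43.8% were higher and 35.2% lower. Of 23 tested unigenes for the synthesis, packing, uptake and breakdown of transmitters, 6 (26.1%) were higher and 11 (47.8%) lower in imagoes than in young larvae. Within them the vesicular inhibitory amino acid transporter, which loads GABA into vesicles, averaged 26.1 ± 3.3 CPM in imagoes and 125 ± 7.4 in young larvae (13_Contig_8462, -2.27 ± 0.19, adjusted p = 4.9e-07). The synaptic vesicular amine transporter, which loads dopamine, serotonin and octopamine, averaged 345 ± 4.9 CPM in imagoes and 95.0 ± 6.2 in young larvae (13_Contig_5311, 1.86 ± 0.14, adjusted p = 1.8e-07). SD values are over 3 libraries. In the same comparison 8 GABA receptor unigenes were lower and none higher, octopamine and tyramine receptors had 2 higher and 1 lower, serotonin receptors 3 lower and none higher, and dopamine receptors 1 higher and 2 lower. The transporters are single unigenes of the list, and a link between them and the receptor counts was not tested.

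Of 10 unigenes for neuropeptide processing and release, 1 was higher and 6 lower in imagoes than in young larvae, among them carboxypeptidase E, which trims peptide precursors (27.9 ± 1.8 CPM in imagoes, 66.9 ± 10 in young larvae). Of 11 tested hormone and peptide receptors outside the name rule, 3 were higher and 2 lower. One FMRFamide receptor, 13_Contig_33816, had 0.118 ± 0.096 CPM in subimagoes and 1.80 ± 0.65 in mature larvae (log2 change -3.96 ± 0.48, adjusted p = 0.00088), while another, 13_Contig_7578, had 75.6 ± 4.0 CPM in imagoes and 29.3 ± 2.4 in young larvae (1.37 ± 0.17). Of 38 tested signalling proteins inside the cell, 11 (28.9%) were higher and 15 (39.5%) lower in imagoes than in young larvae. Mature larvae had 13 (34.2%) higher and 3 (7.89%) lower than young larvae, beside 25.3% and 9.73% of all unigenes tested. DESeq2 called 13 higher and 11 lower at that step. A putative adenylate cyclase, the enzyme that makes cyclic AMP, averaged 109 ± 3.4 CPM in imagoes and 26.8 ± 1.0 in young larvae (13_Contig_34, 2.02 ± 0.17, adjusted p = 5.2e-07). Of 26 neuronal and synaptic unigenes 8 (30.8%) were higher and 11 (42.3%) lower in imagoes than in young larvae. Their median was -0.29, against -0.84 for the receptor set. Of 2 glial unigenes, both named after the receptor moody of the fly blood-brain barrier, 1 was higher and 1 lower.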

How the data were processed

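RNA of whole mayflies was read as 125 bp pairs; per the labels' protocols, CLC Genomics Workbench and then CAP3 built the unigenes from them. Mapper, counting and strand settings: not given in the sources used here; the submitters' processing notes name DESeq. The deposited table holds the authors' read counts per unigene and library and their RPKM values, which equal count over length and library total (largest relative difference 3.42e-07). Only counts were tested, with edgeR 4.0.16 (glmQLFit and glmQLFTest, robust, TMM, filterByExpr) in R 4.3.3 on 15 libraries in 5 groups that share 1 estimate of the spread. P-values were adjusted by Benjamini-Hochberg across the 34131 unigenes tested, with calls under 0.05. The p-values rest on 3 pools per group, called biological replicates in the labels. Each SE printed with an edgeR log2 change is the absolute log2 change divided by the square root of the test's F statistic, because that test gives no SE. Alternatives were other scalings and filters, DESeq2 1.42.0, a replicate block, no mixture and leaving out each library. Fits without 1 library were filtered anew and tested 36091 to 39162 unigenes. A call lost there can also reflect the changed filter, spread estimate and adjustment. Code was tested on simulated data.

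Members and lists were chosen with earlier results of these data known. The lists were found by words in the name, for neuronal and synaptic proteins, transmitter synthesis, packing, uptake and breakdown, neuropeptide processing and release, other hormone and peptide receptors, signalling inside the cell, muscle structure, and glia. Named were eclosion hormone, in each class the 3 members with the highest RPKM, per comparison and direction up to 6 called members with groups apart and at least 1 CPM, and up to 3 unigenes per list. Further members were named after their values were seen.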

Additional observations from a re-analysis of the deposited data

How the results depend on the processing

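Counts of members called are given as higher and lower. For mature against young larvae (14 and 15) the higher members numbered 9 with DESeq2's size factors, with scaling on arthropod hits, with the stricter filter and without the mixture, and 6 with library totals, which gave 28 lower; DESeq2's test gave 24 lower. For subimagoes against mature larvae (7 and 10) there were 4 higher without a filter, 11 higher with DESeq2's test, and 5 lower with library totals. For imagoes against subimagoes (1 and 16) there were 4 higher with DESeq2's size factors and with its test, 3 without the mixture, 2 with the stricter filter, 2 and 8 with library totals, and 0 higher when receptors alone were counted. Leaving out 1 library gave 9 to 17 higher and 11 to 16 lower for mature against young larvae, 2 to 7 and 2 to 13 for subimagoes against mature larvae, 1 to 3 and 9 to 17 for imagoes against subimagoes, 12 to 14 and 36 to 49 for imagoes against young larvae, and 54 to 61 over all stages. DESeq2 gave no value for all stages together. Of 81 calls of members named by the stated rule 55 held under all 20 alternatives, 26 were lost under at least 1, and 0 reversed. Members named after their values were seen are not among these. Over all members, calls kept under every alternative were 6 of 14 higher and 10 of 15 lower for mature against young larvae. For subimagoes against mature larvae they were 2 of 7 and 2 of 10. For imagoes they were 1 of 1 and 8 of 16 against subimagoes, and 10 of 13 and 30 of 44 against young larvae.

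Whether replicate numbers pair the samples could not be decided from 3 libraries a group. Of 30 same-numbered pairs of libraries 4 had a correlation of deviations over 0.1, and the 30 ran from -0.382 to 0.626. Young and mature larvae gave 0.541 for replicate 1, 0.626 for replicate 2 and -0.382 for replicate 3. Of 15 libraries 4 correlated best with their own number. With the replicate number as a block, subimagoes against mature larvae gave 4 higher and 8 lower, and no other count moved by over 1.5 times.

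Scaling sets the zero point. Against TMM, library totals moved the median of all unigenes by -0.52, 0.27, 0.15 and -0.10 in the 4 comparisons (mature against young larvae, subimagoes against mature larvae, imagoes against subimagoes, imagoes against young larvae), and scaling on arthropod hits by -0.22, -0.13, -0.18 and -0.54. Members under about 1 CPM rest on few reads, and with 3 pools a stage a smaller difference may go uncalled.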

Other observations

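The 91 members summed to 769 to 806 CPM in the mixture libraries, 663 to 798 in young larvae, 668 to 876 in mature larvae, 734 to 766 in subimagoes and 568 to 621 in imagoes.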
